A study of Mus musculus with 2 samples.

Results

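*Cd28*, *Ctla4* and *Icos* form a cluster of related lymphocyte receptor genes on mouse chromosome 1, and the contacts of this cluster were examined by Hi-C in mouse embryonic stem (ES) cells. Its members were chosen by name and gene position, with earlier results of these data known. They were 3 of the 497 protein-coding genes that lie wholly inside the 3 to 90.75 Mb part of chromosome 1 that was analysed here (assembly GRCm38). In Hi-C, DNA pieces that are neighbours in the fixed nucleus are ligated and read from both sides, and each listed pair of reads marks a contact of its positions. One group was wild-type ES cells and the other was *Lin28a* knockout ES cells, with 1 library each. *Lin28a* encodes an RNA-binding protein, and the paper examined its part in nucleolar function and gene expression in pluripotent stem cells. Both groups were grown on feeder cells from mouse embryonic fibroblasts, in medium with leukemia inhibitory factor and a pair of kinase inhibitors (LIF/2i). The labels name no step that removed the feeder cells, so their DNA may be in both libraries. In the study's methods the ES line is E14 unless V6.5 is named, and knockout clones were made with CRISPR/Cas9 aimed at the second exon of *Lin28a*. The labels of the Hi-C libraries name neither the line nor the clone. *Lin28a* lies outside chromosome 1, and the labels were not checked against it here.

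Cd28 is the costimulatory receptor that a T cell needs besides its antigen receptor to become fully activated. Ctla4 binds the same ligands as Cd28 and restrains activation, and Icos is a further costimulatory receptor that appears on T cells after activation. All 3 belong to the immunoglobulin superfamily, and their genes lie side by side in mammals. These genes are known for their expression in lymphocytes. No RNA was measured in these libraries, so nothing is said here of their expression in ES cells.

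All 3 genes run on the plus strand. *Cd28* (gene 12487) spans 60746388 to 60773359 and has 4 exons. *Ctla4* (gene 12477) spans 60909025 to 60915832, and its curated transcripts have 3 and 4 exons. *Icos* (gene 54167) spans 60960773 to 61000322 in the annotation, and its curated transcript starts at 60977914 and has 5 exons. The span from the start of *Cd28* to the end of *Icos* measures 253935 bp and is called the cluster span. A window of 1 Mb to either side of the middle of *Ctla4* holds 9 other protein-coding genes. On the left lie *Fam117b*, *Ica1l*, *Wdr12* (a ribosome biogenesis factor), *Carf*, *Nbeal1*, *Cyp20a1*, *Abi2* and *Raph1*, the last 2 of which encode regulators of the actin cytoskeleton. On the right the nearest coding gene is *Pard3b*, a cell polarity gene that starts 729.642 kb after the start of *Ctla4*, so a long stretch without coding genes follows *Icos*.

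The analysed part of chromosome 1 held 5767991 wild-type pairs and 4412861 knockout pairs, of which 3255028 and 2509097 had both ends on chromosome 1 at 5 kb or more (cis pairs). Read names showed a larger and a smaller sequencing run in both lists, and no label says which replicate a run holds. With 1 library per group no test between the groups was possible and no p-value is given. All intervals are 95% intervals of counting error alone. They would be too narrow where reads amplified by PCR from the same molecule were counted, since such reads are not independent. Contacts of bins past the end of the analysed part were complete where they were partners of the cluster.

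The cluster received far fewer listed pair ends than the DNA around it, in both libraries. Over the body of *Cd28*, 476 cis and 235 trans ends (ends whose mate lay on another chromosome) were listed in wild-type cells and 392 and 179 in knockout cells, which is 26.4 and 21.2 ends per kb. *Ctla4* had 52 cis and 22 trans ends in wild-type cells and 36 and 17 in knockout cells, or 10.9 and 7.78 ends per kb. *Icos* had 746 and 316 ends in wild-type cells and 554 and 233 in knockout cells, or 26.9 and 19.9 ends per kb. The 9 neighbouring genes ranged from 97.6 ends per kb at *Pard3b* to 132.5 at *Cyp20a1* in wild-type cells, and from 78.7 to 106.1 at the same genes in knockout cells. Every neighbour lay above every member in both libraries. Over all 497 genes the median was 112 and 88.3 ends per kb, and counted from the lowest gene *Ctla4* ranked 3 in both libraries, *Icos* ranked 5 in both, and *Cd28* ranked 4 and 6.

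**Figure D1:**
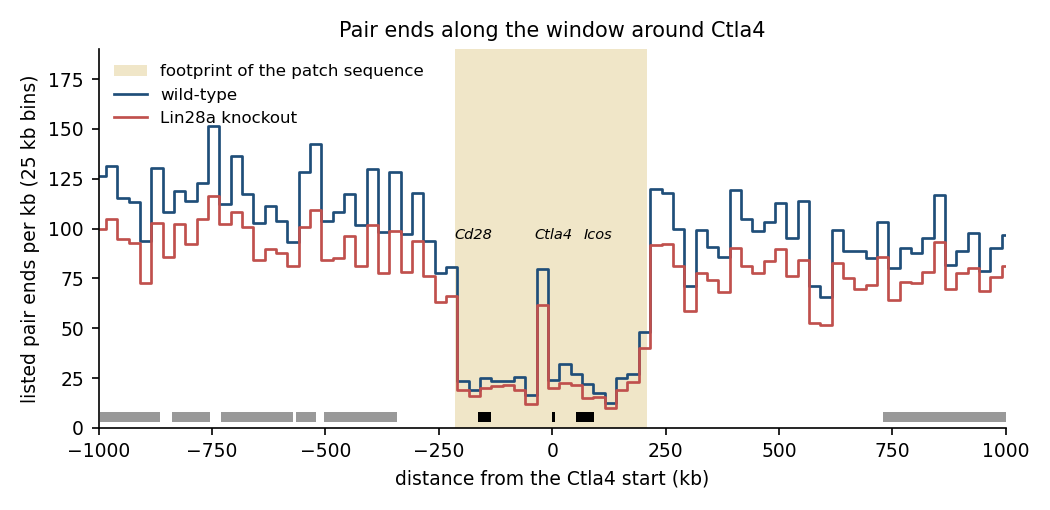
Listed pair ends per kb in 25 kb bins (vertical axis) against the distance from the *Ctla4* start in kb (horizontal axis), for the wild-type and the *Lin28a* knockout library; black bars mark the member genes, grey bars the neighbouring genes, and the shaded stretch is the footprint of the patch sequence. Both lines drop at the same places, to 26.5 and 21.0 ends per kb over the shaded stretch from 108.8 and 86.4 in the flanks.

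The low stretch ran from 60690001 to 61115000 in 5 kb steps, and it coincided with the place of a second copy of the cluster in the reference assembly. The assembly carries a patch of 456798 bp with the sequence of the mouse strain NOD/ShiLtJ, and this patch aligned to positions 60694705 to 61117038 of the chromosome, which is called the footprint here. Alignments to the patch spanned 99.49% of the 422334 bp of the footprint, with bases that are missing from the patch inside them included. Of the spanned bases 97.6% were equal, and the missing bases count among the unequal ones, so this is not the identity of the bases that do align. The footprint held 26.5 ends per kb in wild-type cells and 21.0 in knockout cells, and the 500 kb to either side held 108.8 and 86.4. The footprint was thus 4.11-fold lower in wild-type cells (interval 4.03 to 4.19) and 4.11-fold lower in knockout cells (4.02 to 4.20).

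Inside the footprint the listed ends lay mainly near bases that tell the chromosome from the patch. Of the ends, 81.7% in wild-type cells and 80.3% in knockout cells fell within 75 bp of a base that differs from the patch or is missing from it, while 37.2% of all positions lie that near. When the 84 bins of 5 kb were put into 4 equal groups by this share of positions, the median density was 12.2, 17.8, 28.2 and 43.2 ends per kb in wild-type cells and 8.8, 15.2, 24.8 and 32.4 in knockout cells. The density therefore increased with sequence difference in both libraries. Across the bins, Spearman's rho was 0.695 and 0.693, as a description of bins that share libraries and depth, and 0.946 between the libraries. From 60880001 to 60895000, between *Cd28* and *Ctla4*, the bins reached 93 to 105.4 ends per kb in wild-type cells and 70.8 to 78.6 in knockout cells, close to the flanks. An exception was the bin from 60725001 to 60730000, which is wholly repeat-masked and missing from the patch, with 1 and 3 ends.

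**Figure D2:**
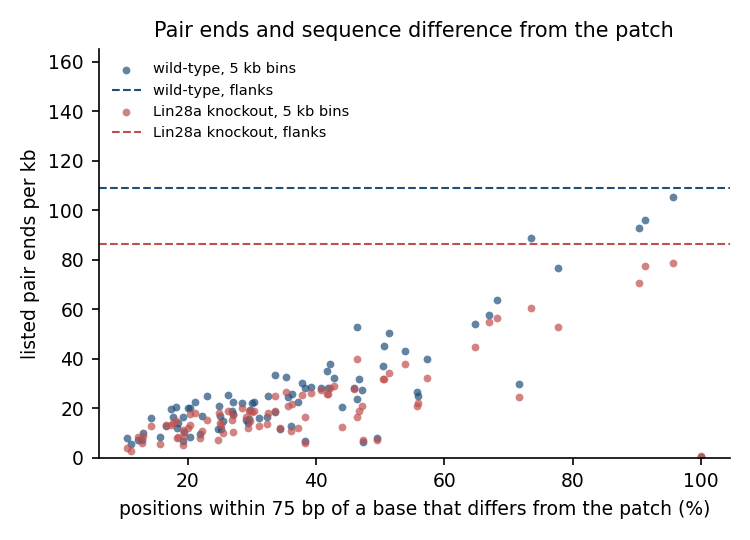
Listed pair ends per kb (vertical axis) in the 84 bins of 5 kb in the footprint against the percentage of their positions within 75 bp of a base that differs from the patch or is missing from it (horizontal axis); dashed lines give each library's density in the 500 kb flanks. Bins with few differing bases lie far under the dashed lines and those above 90% lie near them, except the repeat-masked bin at 100%, which had 1 and 3 ends.

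The promoter of *Ctla4* and the densest window of the footprint are printed to show both ends of this range, each 250 bases long on the plus strand of GRCm38.p6, from RefSeq. Capitals mark bases that differ from the patch. The first lies just upstream of the *Ctla4* start at chr1:60908775-60909024. The second lies at chr1:60888635-60888884, inside the annotated gene *Gm38137* between *Cd28* and *Ctla4*.
Ctla4 promoter: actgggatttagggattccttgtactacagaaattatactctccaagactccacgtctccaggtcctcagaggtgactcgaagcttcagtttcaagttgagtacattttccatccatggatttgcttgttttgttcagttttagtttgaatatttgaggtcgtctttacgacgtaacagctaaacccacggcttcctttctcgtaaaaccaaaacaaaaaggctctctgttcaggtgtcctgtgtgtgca
densest window: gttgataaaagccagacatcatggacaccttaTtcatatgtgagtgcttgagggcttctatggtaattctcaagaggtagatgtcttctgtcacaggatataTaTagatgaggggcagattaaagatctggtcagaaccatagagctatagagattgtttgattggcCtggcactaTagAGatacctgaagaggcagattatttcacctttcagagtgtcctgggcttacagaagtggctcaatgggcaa

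The promoter has 0 bases that differ from the patch, and 0 ends were listed in it in both libraries, where the flanks held 27.2 and 21.6 ends per 250 bases. A count of 0 allows up to 3 ends there. The densest window has 7 differing bases and held 61 and 42 ends. It was chosen for its count, so that its density is a description. The windows also differ in the sequence GATC, at which the fragment numbers of the lists show the DNA to have been cut. It occurs 0 times in the promoter and 1 time in the densest window, and 41.9% of 32851 RefSeq promoter windows of this length hold it on either strand, which read alike.

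Mapping quality was lower in the footprint as well. At both ends it was 30 or more in 83.6% and 81.0% of footprint ends against 91.0% and 89.7% in the flanks. Pairs that name the patch itself were few, with 23 and 16 whose first end lay in the analysed part of chromosome 1. The reads were not aligned again without the patch, so its part in the low density was not tested. Contacts of the cluster are therefore given against an expected count that takes both distance and the visibility of each 25 kb bin into account, which is called the corrected expected count. The raw count stands beside it. Contacts with A and B bins and with distant 1 Mb bins are given against distance alone.

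At equal totals the cluster span was seen about equally in both libraries. It took part in 4914 cis pairs in wild-type cells and 3908 in knockout cells, a ratio of knockout to wild-type of 1.03 (0.989 to 1.08) after scaling to all cis pairs. For the 2 Mb window the counts were 97746 and 78737 and the ratio was 1.05 (1.04 to 1.05).

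A smaller share of the cis pairs of the cluster was long-range in knockout cells. The share at 2 Mb or more was 54.0% in wild-type cells (52.6 to 55.4) and 49.7% in knockout cells (48.1 to 51.3), lower by 4.27 points with an interval for the difference from -6.36 to -2.17. Over the analysed part of chromosome 1 the difference was -1.76 points (-1.84 to -1.68), and over the 2 Mb window it was -1.67 (-2.14 to -1.20). The counting interval of the cluster lay below both of these values, but without the larger run of the knockout library the difference was -2.16 points (-9.93 to 5.61). How far other stretches of this length differ was not counted. The cluster also had small shares of short pairs, with 2.60% and 2.56% at 20 to 100 kb against 11.1% in both libraries over the analysed part. The part of the low density in the shares of the cluster was not tested. At 0.5 to 2 Mb the share of the cluster was 21.4% and 25.3%, higher in knockout cells by 3.87 points (2.09 to 5.65), against 1.51 points over the analysed part. At 30 Mb or more the cluster and the chromosome moved by like amounts, with -4.28 points for the cluster (20.1% and 15.8%) and -4.42 points over the analysed part. From 2 to 30 Mb the share of the chromosome was higher in knockout cells, and that of the cluster did not differ detectably. At 2 to 10 Mb the difference was 0.61 points (-0.91 to 2.15) for the cluster and 1.26 over the analysed part, and at 10 to 30 Mb it was -0.61 (-2.22 to 1.02) against 1.40.

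Contacts among the members were rarely seen, in a stretch where few pairs were listed at all. Between *Cd28* and *Ctla4*, each widened by 10 kb, 4 pairs were listed in wild-type cells and 3 in knockout cells. Between *Cd28* and *Icos* there were 5 and 2, and between *Ctla4* and *Icos* there were 4 and 4. Against the count expected from distance alone, these pairs came to 0.124 and 0.120 for *Cd28* with *Ctla4*, 0.088 and 0.045 for *Cd28* with *Icos*, and 0.056 and 0.073 for *Ctla4* with *Icos*. With the visibility of the bins in the expected count they came to 1.60 and 1.37, 1.252 and 0.658, and 0.71 and 0.87, and in both libraries the interval of each of these 6 values included 1. The raw ratios of knockout to wild-type had wide intervals, from 0.14 to 5.71 for *Cd28* with *Ctla4*, from 0.049 to 3.12 for *Cd28* with *Icos*, and from 0.24 to 6.93 for *Ctla4* with *Icos*. The widening mattered for *Cd28* with *Icos*, where genes widened by 25 kb gave a log2 ratio of -2.35 (-5.54 to -0.20) in place of -0.97 (-4.36 to 1.64).

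Contacts with the neighbouring genes were better covered, and *Ctla4* and *Icos* met the genes on their left more than distance and visibility gave. The 8 left genes, each widened by 10 kb, overlap and were merged into 3 stretches so that each pair counted once. With them *Ctla4* had 80 and 79 pairs, 1.63 times the corrected expected count in wild-type cells (1.29 to 2.03) and 1.76 times in knockout cells (1.39 to 2.19). *Icos* had 124 and 102 pairs with them, at 1.42 (1.18 to 1.69) and 1.47 (1.20 to 1.78). *Cd28*, the member nearest to these genes, had 110 and 92 pairs and stood at 1.06 in both libraries (0.871 to 1.277 and 0.857 to 1.304). Among single left neighbours, *Raph1* with *Ctla4* had 30 and 22 pairs, at 2.11 (1.43 to 3.02) and 1.76 (1.10 to 2.67). *Abi2* with *Icos* had 27 and 26 pairs, at 1.60 (1.06 to 2.33) and 1.97 (1.29 to 2.89). Every other member with a single left neighbour had an interval that included 1 in at least 1 library. With *Pard3b* on the right, *Icos* had 99 and 86 pairs at 1.45 (1.18 to 1.77) and 1.53 (1.22 to 1.89), *Ctla4* had 38 and 28 at 1.23 (0.87 to 1.68) and 0.94 (0.62 to 1.35), and *Cd28* had 37 and 43 at 0.92 (0.65 to 1.27) and 1.19 (0.86 to 1.60). With these genes *Icos* was thus above expectation on both sides, *Ctla4* on the left, and *Cd28* on neither. The whole 500 kb flanks of the footprint gave another picture. With the left flank *Cd28* stood at 1.23 and 1.19 of the corrected expected count, *Ctla4* at 1.67 and 1.69, and *Icos* at 1.64 and 1.37. With the right flank they stood at 0.454 and 0.599, 0.548 and 0.593, and 0.845 and 0.864, so *Icos* was not above expectation there. The 6 ratios of knockout to wild-type with the left genes and with *Pard3b* ran from 0.764 to 1.29, and each interval included 1.

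**Figure D3:**
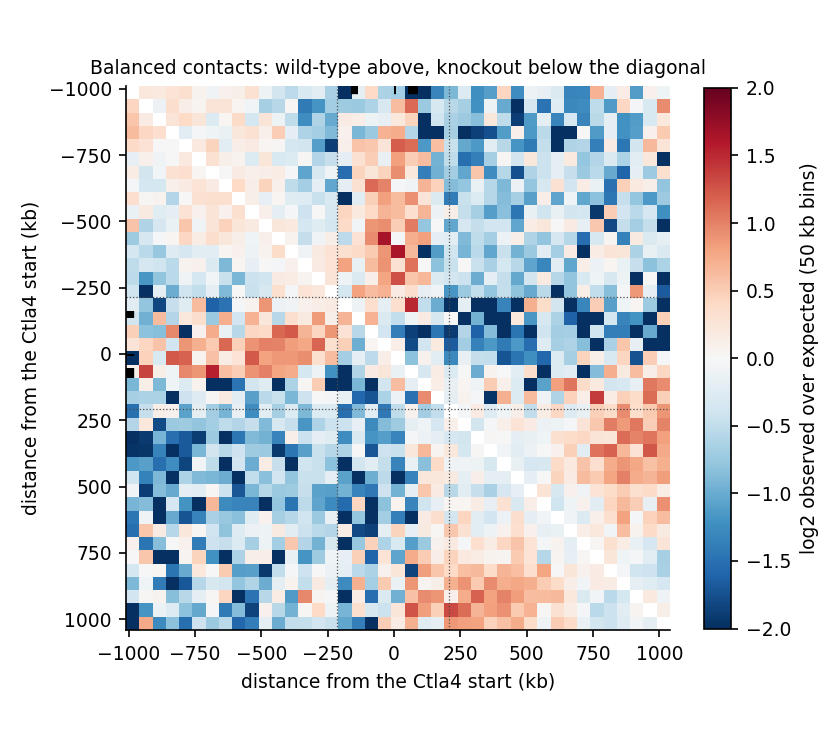
Balanced contacts as log2 of observed over expected in 50 kb bins of the 2 Mb window, with wild-type above and knockout below the diagonal; both axes give the distance from the *Ctla4* start in kb, black marks the members, and dotted lines bound the footprint. In both libraries the bins around *Ctla4* and *Icos* are red with the left side and bins between *Cd28* and *Ctla4* are mostly blue with the right side.

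An insulation minimum lay at the right end of the cluster in both libraries, just past *Icos* in wild-type cells and inside *Icos* in knockout cells. The insulation score is the log2 of the mean balanced contact across each 25 kb bin in a 250 kb square, over the mean of the analysed part, and boundaries are minima with a prominence of at least 0.1. In wild-type cells boundaries lay at 60.4625 Mb near *Abi2* (score -0.24), at 61.0125 Mb just past *Icos* (-0.57) and at 61.8375 Mb in *Pard3b* (-0.17). In knockout cells they lay at 60.1375 Mb in *Carf* (-0.01, with a prominence of 0.13), at 60.4625 Mb (-0.16), at 60.9125 Mb over *Ctla4* (-0.77, with a prominence of 0.10), at 60.9875 Mb inside *Icos* (-0.77), at 61.3375 Mb (-0.10) and at 61.9125 Mb (-0.24). The summed map had boundaries at 60.4625, 60.9875 and 61.8625 Mb. The prominence of the *Icos* boundary was 0.94 in wild-type cells, 1.12 in knockout cells and 1.03 in the summed map, where 16% of the 175 boundaries had a higher prominence. The low was broad. From the bin of *Ctla4* to the bin that holds the end of *Icos* the score ran from -0.44 to -0.57 in wild-type cells and from -0.66 to -0.77 in knockout cells. Its lowest bin moved with the processing, between 3.475 and 115.975 kb after the *Ctla4* start, so the boundary is placed between *Ctla4* and the DNA just past *Icos*. The balanced score there rested on few pairs, with 152 and 122 pairs across the square at 60.9875 Mb where distance alone gave 1176 and 923.

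The 2 sides of the cluster differed in which flank they met, and in this measure the visibility of each bin cancels. For each 25 kb bin of the footprint, the log2 of contact with the 500 kb left of the footprint over contact with the 500 kb right of it was taken, each over its expected count. *Cd28* stood at 1.44 (0.84 to 2.05; 145 left and 26 right pairs) in wild-type cells and 0.99 (0.41 to 1.58; 114 and 29) in knockout cells. *Ctla4* stood at 1.61 (0.99 to 2.22; 85 and 28 pairs) and 1.51 (0.88 to 2.14; 77 and 27). *Icos* stood at 0.96 (0.59 to 1.32; 146 and 103 pairs) and 0.67 (0.24 to 1.10; 95 and 80), the lowest of the 3 members in each library. All 3 members favoured the left flank, with each interval above 0. By bin, the 12 bins before the boundary bin had a median of 1.27 in wild-type cells and 1.36 in knockout cells, and 11 and 10 of their intervals lay above 0. The boundary bin and the 5 bins after it had medians of 0.08 and -0.48, with 0 intervals above 0 in each library and 2 and 1 below 0. How often bins of other stretches have such intervals was not counted, and the boundary was placed from the same pairs, so these counts are a description. In both libraries the preference for the left flank was seen up to the boundary bin. Over the footprint right of the boundary the value was -0.00 (-0.30 to 0.29) in wild-type cells and -0.33 (-0.66 to 0.00) in knockout cells. Right of *Icos* it was -0.07 (-0.38 to 0.25) and -0.45 (-0.80 to -0.09). The knockout value right of the boundary excluded 0 with pairs of 20 kb or more, at -0.35 (-0.68 to -0.015). At mapping quality of 30 or more that value included 0, at -0.34 (-0.71 to 0.018).

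A difference between the libraries in the preference for the left flank was not detectable on either side of the boundary, and the sides were not pooled. Over the footprint left of the boundary it was 1.40 (1.22 to 1.59) in wild-type cells and 1.19 (0.99 to 1.38) in knockout cells, a difference of -0.22 with an interval from -0.48 to 0.05, and without the larger run of the knockout library the difference was 0.0014 (-0.95 to 0.95). Right of the boundary the difference was -0.33 (-0.77 to 0.11). Between *Cd28* and *Ctla4* it was 1.92 (625 left and 128 right pairs) and 1.46 (517 and 146), a difference of -0.46 (-0.84 to -0.07), and many of these pairs came from 1 bin. Of the 18 bins, 1 had an interval of the difference that excluded 0, which was the bin from 60875001 to 60900000 with 301 and 65 pairs against 226 and 78 and a difference of -0.68 (-1.22 to -0.15). The other 4 bins that lie wholly between *Cd28* and *Ctla4* ran from -0.39 to 0.76, each with an interval that included 0. The background was 6.88% of 3402 bins of the analysed part taken the same way, and 3.7% in this direction, so a share of 1 in 18 is near the background. The differences of *Cd28* (-0.45, -1.29 to 0.39), *Ctla4* (-0.10, -0.98 to 0.79) and *Icos* (-0.29, -0.85 to 0.27) included 0.

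Contacts across the boundary did not differ detectably between the libraries. The boundaries were placed at minima of balanced contact in the same pairs, so low values across them are a description. At the *Icos* boundary the 152 and 122 crossing pairs were 0.607 (0.514 to 0.711) and 0.590 (0.490 to 0.705) of the corrected expected count, with a raw ratio of knockout to wild-type of 1.02 (0.80 to 1.31). The boundary near *Abi2* kept more crossing contact, at 0.829 (0.782 to 0.879) and 0.889 (0.834 to 0.947), and so did the boundary in *Pard3b*, at 0.898 and 0.869. The 500 kb flanks, in which density was not low, met each other across the whole footprint at 0.735 (0.693 to 0.779) and 0.680 (0.636 to 0.726), from 1140 and 900 pairs. Their raw ratio was 0.941 (0.862 to 1.03).

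Within the stretches that the summed boundaries set, the ratios of knockout to wild-type were close to 1. The left stretch from 60462501 to 60987500, which holds *Cd28*, *Ctla4* and the start of *Icos*, had 2822 and 2208 pairs with itself, 1.11 (1.07 to 1.15) and 1.13 (1.08 to 1.17) of the corrected expected count. Its raw ratio was 1.02 (0.960 to 1.07) and its corrected ratio 1.01 (0.958 to 1.07). The right stretch, which runs from there to 61862500, had 9695 and 7632 pairs at 1.05 and 1.03. Its raw ratio was 1.01 (0.985 to 1.05) and its corrected ratio 0.980 (0.951 to 1.01). Between the stretches, which meet at a minimum of contact in the same pairs, there were 1352 and 1155 pairs. These came to 0.697 (0.660 to 0.735) and 0.708 (0.668 to 0.750). Their raw ratio was 1.05 (0.974 to 1.14) and their corrected ratio 1.02 (0.939 to 1.10). Over the 174 domains of the analysed part the raw ratio ran from 0.865 to 1.15 with a median of 1.00, and 0% were past 1.5-fold in either direction. By its corrected contact the left stretch stood at the 71.3rd percentile of these domains in wild-type cells and the 74.1st in knockout cells, and the right stretch at the 53.4th and the 50th.

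Single 50 kb bin pairs past 1.5-fold made up a larger share inside the footprint than outside it. Of 334 bin pairs with at least 20 pairs expected from distance in each library, 40 were past 1.5-fold higher and 29 past 1.5-fold lower in knockout cells, against a background of 12.4% in either direction (6.28% higher and 6.12% lower) of 17279 bin pairs. The share of the window was 20.7%. It was 50% of the 44 bin pairs with both bins in the footprint, where the median was 7 and 5.5 pairs, 33.6% of the 110 with 1 bin there, and 5.56% of the 180 with none. With visibility in the expected count 226 bin pairs could be tested, of which 2 had both bins in the footprint and 26 had 1, and 6 were past the fold in each direction, which is 5.31% against a background of 10.3% (5.15% higher and 5.11% lower). The part of low counts in the share of called bin pairs was not tested.

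The cluster lay in the A compartment, the more gene-rich part of the nucleus, near a change from A to B. The compartment value is the leading eigenvector of balanced contacts in 250 kb bins, in SD units, with A above 0. The bin from 60.75 to 61 Mb, which holds the cluster but for the first bases of *Cd28* and the last of *Icos*, stood at 0.74 in wild-type cells and 0.59 in knockout cells, at the 68.9th and 67.8th percentile of 349 bins. The difference of -0.15 was about the SD of the difference over all bins, 0.152, and it was -0.0091 at mapping quality of 30 or more and 0.28 without the larger run of the knockout library. To the left the bins that hold *Wdr12*, *Carf* and *Nbeal1* reached 1.37 and 1.46, and to the right the next bin fell to 0.22 and 0.03 and the bin from 61.75 to 62 Mb to -0.54 and -0.27. The value thus declined through the cluster in both libraries, from the gene-rich left to the gene-poor right.

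**Figure D4:**
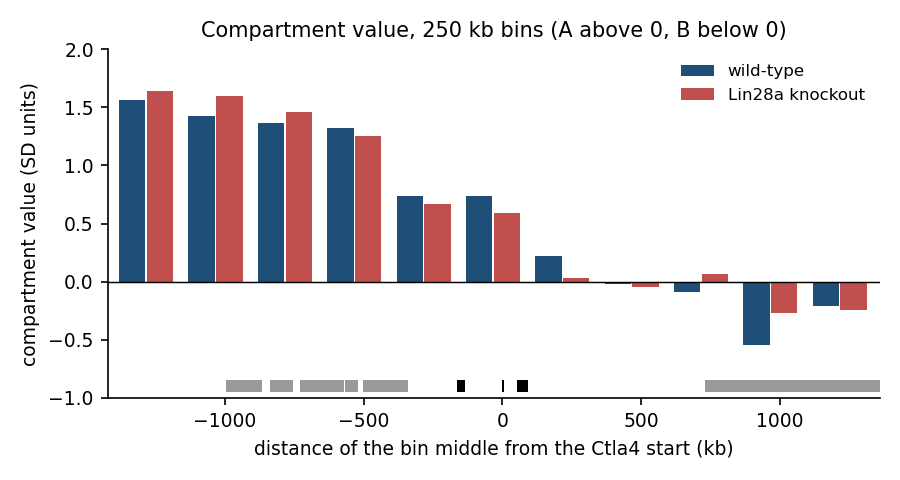
Compartment value in SD units (vertical axis; A above 0, B below 0) of 250 kb bins against the distance of the bin middle from the *Ctla4* start in kb (horizontal axis), as bars for both libraries. The bars are high on the left and near or below 0 on the right, with the cluster bin at 0.74 and 0.59 between 1.57 and 1.64 at the left end and -0.21 and -0.24 at the right end.

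The cluster's own long-range contacts describe the same placement. They are part of the maps that set the A and B bins, so they are no separate check. At 2 Mb or more it had 551 pairs with A bins (the top 20% of bins) and 211 with B bins (the bottom 20%) in wild-type cells, and 380 and 174 in knockout cells. The expected counts here came from distance alone, without the visibility of the A and B bins. The log2 of observed over expected with A minus that with B was 1.12 (0.89 to 1.35) and 0.82 (0.56 to 1.08), with a difference of -0.30 (-0.65 to 0.05). The 500 kb left of the footprint stood at 1.26 (1.17 to 1.35) and 1.21 (1.12 to 1.31), and the 500 kb right of it at 0.23 (0.14 to 0.32) and 0.28 (0.18 to 0.38). In both libraries the value of the cluster lay between those of its flanks, but in wild-type cells its interval included the value of the left flank.

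Distant partners of the cluster were counted in 186 bins of 1 Mb along chromosome 1, and 76 of them had at least 20 pairs in both libraries together. Of these 76, 2 were past 1.5-fold higher and 12 past 1.5-fold lower in knockout cells, or 18.4%. The background over 250 kb baits of the analysed part was 15.9% (6.84% higher and 9.03% lower), and 18.7% (8.05% and 10.7%) where only bins with no more pairs than the largest count of the cluster entered. The share of the cluster is near this background. Its split by direction changed with the setting, to 6 higher and 1 lower with the whole 2 Mb window as bait and to 12 and 12 without the larger run of the knockout library. The interval of the ratio excluded 1 for 3 of the 76 bins, against a background of 4.97% (2.55% higher and 2.42% lower) of 35093 bins of such baits, so the count is no more than the background and the 3 bins are given as a description. The bin at 80 Mb, with *Fam124b*, *Cul3* and *Dock10*, had 13 and 26 pairs and a ratio of 2.34 (1.16 to 4.96). The bin at 75 Mb, which begins with *Nhej1*, *Slc23a3* and *Cnppd1*, had 34 and 15 pairs at 0.50 (0.25 to 0.94), and the bin at 87 Mb, which begins with the phosphatase genes *Alppl2*, *Alpi* and *Akp3*, had 32 and 12 at 0.46 (0.22 to 0.92). The bin at 49 Mb was also higher (7 and 13 pairs) and the bin at 48 Mb was lower (15 and 6), both without a coding gene and with intervals that included 1.

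The highest observed over expected lay in bins from 119 to 135 Mb. In wild-type cells it was at 135 Mb (1.02 from 17 pairs; *Lgr6*, *Ptpn7* and *Arl8a* are its first genes), 131 Mb (1.01 from 18 pairs; *Il10*, *Mapkapk2* and *Dyrk3*) and 133 Mb (0.81 from 14 pairs; *Mdm4*, *Pik3c2b* and *Ppp1r15b*). In knockout cells it was at 131 Mb (0.92 from 9 pairs), 119 Mb (0.74 from 11 pairs; *Inhbb*, *Ralb* and *Tmem185b*) and 135 Mb (0.67 from 6 pairs). The ranking depended on the scale. When each bin was also set against all 250 kb baits and against the level of the cluster, the highest were 135 Mb (2.43), 131 Mb (1.94) and 87 Mb (1.88) in wild-type cells, and 13 Mb (1.70; *Prdm14*, *Ncoa2* and *Tram1*), 131 Mb (1.63) and 36 Mb (1.58; *Hs6st1*, *Uggt1* and *Neurl3*) in knockout cells. The raw values stand beside a level of the cluster over all these bins of 0.332 and 0.313.

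Other immune genes of chromosome 1 did not stand out as partners of the cluster. Of 14 such genes 13 lay in the analysed part, and 11 of these were in A and 2 in B in both libraries, where *Ikzf2*, which encodes the T cell transcription factor Helios, stood at -0.86 and -0.98 and the chemokine gene *Ccl20* at -0.34 and -0.12. In windows of 500 kb around the 14 genes the median corrected observed over expected was 0.72 in wild-type cells and 1.09 in knockout cells. *Zap70*, a kinase of the T cell antigen receptor, had the highest value, with 21 and 13 pairs at 1.91 (1.18 to 2.92) and 1.46 (0.78 to 2.49). It was the only gene of the list whose interval lay above 1, and only in wild-type cells. *Pdcd1*, the gene of another inhibitory receptor of T cells, had 3 and 4 pairs at 0.39 and 0.68. The 6 genes of the interleukin 1 receptor family lie together and their windows share pairs, so they were counted once more from *Il1r2* to *Il18rap*, which gave 5 and 9 pairs and a ratio of 2.11 (0.64 to 8.02). The interval of the ratio excluded 1 for 0 of the 14 genes.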

How the data were processed

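The authors deposited 1 list of valid pairs per library, with a position, strand, restriction fragment and mapping quality score for each end. Per the labels, the submitters' processing notes name CASAVA 1.8, Bowtie2, HiC-Pro and mm10, and the paper's methods leave Hi-C out. Mapping quality ran from 11 to 42, and no normalization had been applied. First ends from 3 to 90.75 Mb of chromosome 1 were used, and later positions of the lists were not analysed here. Pairs 5 kb or more apart were counted in Python 3.11.15 (NumPy 2.4.6, SciPy 1.17.1). Expected counts were means at equal distance over the analysed part, and corrected ones were also multiplied by the balancing weights of both bins. Balanced maps were thinned to 2131334 pairs per library (compartments 1973740, at 20 kb or more), and bins with a total under 5% of the median were dropped. The patch was aligned with minimap2 2.31. Intervals were exact Poisson, Clopper-Pearson, exact binomial splits or log-normal. Steps were tested on simulated maps. Genes named were the members, the coding genes of the window and nearest to boundaries, a list of 14 immune genes (values of 1 of them are not reported here singly), and partner bins by rank with up to 3 genes each. *Gm38137* and the genes of the bins at 13 and 36 Mb were named after their values were seen. Members and lists were chosen with earlier results of these data known. RefSeq promoters matched *Ctla4*, and *Cd28* and *Icos* were not matched.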

Additional observations from a re-analysis of the deposited data

Results flagged for a closer look

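Pairs with an end on the patch that carries the second copy of *Cd28*, *Ctla4* and *Icos* lie outside the contacts described above, and there were 23 in the wild-type list and 25 in the knockout list, which runs further along the genome. Of these, 23 and 16 had their first end in the analysed part of chromosome 1, and 12 and 9 of those lay within 2 Mb of *Ctla4*. The fragment numbers of 48 of the 49 patch ends matched GATC fragments of the patch sequence to within 1. No other sample could serve as a control for these pairs.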

How the results depend on the processing

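With 1 library per group the results have no replicate check, and depth limits the contacts among *Cd28*, *Ctla4* and *Icos* to counts of 2 to 5. No paired analysis was possible because each group has 1 library. Of 166 alternative values for the 30 main results, 127 stayed within a set limit, 39 moved further and 0 of the called values reversed. The limit was the counting interval of the main value. For counts of bins it was 1.5 times, for boundary positions 25 kb, and for compartment values the SD of 0.152. Where no value shows the cause of a move, the cause was not tested. Mapping quality of 30 or more at both ends put the strongest boundary at 3.475 kb after the *Ctla4* start in the wild-type and the summed map, and gave a 4.48- and 4.55-fold lower density in the footprint. Pairs at 20 kb or more gave 3.86- and 3.87-fold. Without the larger run of the wild-type library the boundary lay at 28.475 kb in both libraries and the sum, the log2 ratio across the *Icos* boundary was -0.41 and that of the left stretch -0.092, the A over B preference was 1.35 and the left flank preference 1.62 in the wild-type library, and 7 partner bins were higher. Without the larger run of the knockout library, which leaves few pairs, the difference in the share at 2 Mb or more was -2.16 points (-9.93 to 5.61), the wild-type boundary lay at 28.475 kb, the log2 ratio across the *Icos* boundary was -0.77, the knockout compartment value was 0.97 and its difference 0.28, the A over B preference was 1.36 and its difference 0.18, 12 partner bins were higher, the left flank preference was 1.40 and the density 4.25-fold lower. Bins of 50 kb with a 500 kb square put the boundary of the sum at 115.975 kb, and maps without thinning put the wild-type boundary at 53.475 kb. Bins of 100 kb gave compartment values of 0.49 and 0.38. The whole 2 Mb window as bait gave an A over B preference of 0.89 in the wild-type library and 6 higher and 1 lower partner bins against 2 and 12, and 500 kb bins gave 5 higher. Of 50 kb bin pairs, 84 were higher and 69 lower at 10 or more expected pairs and 96 and 56 past a lower fold, against 40 and 29. The corrected expected count, an alternative added after seeing the data as were the flank preference and the comparison with the patch, gave 6 and 6, and a log2 ratio of -0.030 for the right stretch.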
